A study of Mus musculus with 19 samples.

Results

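The genes described here are *Gpnmb*, *Cd63* and 8 further genes known from macrophages of scarred or lipid-laden tissue, namely *Cd9*, *Lgals3*, *Trem2*, *Lyz2*, *Fabp5*, *Anxa2*, *Anxa5* and *Mmp12*. They are 10 of the 31053 genes in the count table and were found there by their Ensembl identifiers. *Gpnmb* and *Cd63* were chosen by a measured value, because their adjusted p-values were very small when livers of AAV-GFP-injected, TAA-treated mice were set against vehicle livers. The other 8 are genes that work on scar-associated macrophages commonly names. Values of these genes in that comparison are therefore a description: they carry no p-value, and nothing is read from the number past a threshold.

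Livers came from male C57BL/6J mice, and 3 groups were compared. The labels give the mice an age of 6 to 8 weeks without naming the time point, and the age at sacrifice, after the course below, is not given. The vehicle group received PBS (5 libraries, numbered 1 to 5). The AAV-GFP group received increasing doses of thioacetamide (TAA), a liver toxin, for 12 weeks, with AAV8 TBG eGFP injected at week 10 and sacrifice 4 weeks later (7 libraries). The AAV-miR-34b/c group received the same TAA course and, instead of the eGFP vector, AAV8 TBG miR-34b together with AAV8 TBG miR-34c (7 libraries). The TBG promoter is active in hepatocytes, so neither vector was designed to express its product in macrophages. TAA and a vector were both present in each injected group, and the labels give no vector for the vehicle mice, so that effects of TAA and of AAV cannot be told apart in comparisons with vehicle.

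Scar-associated macrophages are recruited monocyte-derived cells that collect along the fibrous septa of injured livers. TREM2, a lipid-sensing surface receptor that signals through the adaptor TYROBP, and the tetraspanin CD9 are the usual markers of these cells. GPNMB is a transmembrane glycoprotein of lysosomes and melanosomes that rises in lipid-loaded phagocytes, and CD63 is a tetraspanin of late endosomes and exosomes that most cell types make. Whole-liver RNA holds transcripts of all cell types, so that fewer cells of a type and less RNA per cell cannot be told apart for any gene below.

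Values are CPM, the counts of a gene for every 1000000 counts of its library after scaling by the TMM method. Total counts were 2214073 to 5208405 per library. Hepatocyte markers (8 genes such as *Alb*) summed to 50048 to 83871 CPM and 12 macrophage and monocyte markers to 258 to 492 CPM, with no marker of either list at 0 in all libraries. Of the 19 libraries, 6 pairs within groups were unusually alike over all genes, with a coefficient of variation beyond counting noise of 0.0813 to 0.170, against 0.214 to 0.473 in the other 46 pairs. These close pairs were vehicle libraries 1 and 4, vehicle libraries 3 and 5, AAV-GFP libraries 1 and 2, and AAV-miR-34b/c libraries 1 and 2, 3 and 4, and 5 and 7. The labels call all of them biological replicates. Neutrophil markers (7 genes such as *S100a8*) summed to 1923 and 1909 CPM in AAV-miR-34b/c libraries 1 and 2, to 399.6 and 424 CPM in libraries 3 and 4 and to 63.5 to 141 CPM in libraries 5 to 7, against 14.8 to 80.5 CPM in the other groups. Their part in the results below was not tested, and each edgeR result of the 10 genes that a close pair decides is given with and without it.

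**Figure D1:**
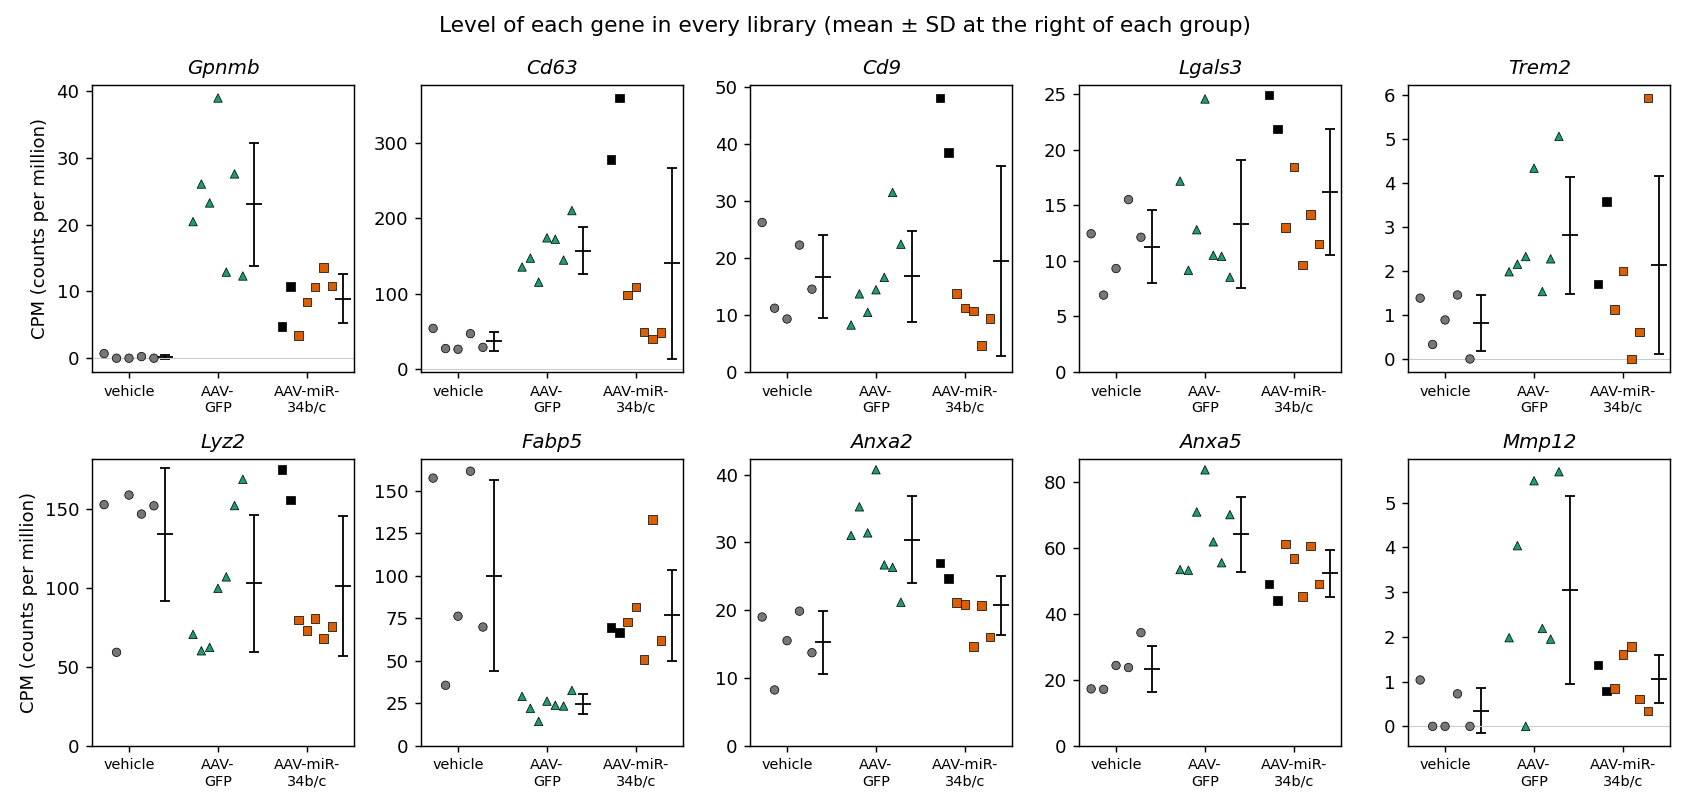
CPM of the 10 genes in every library, 1 panel per gene, with the mean and SD at the right of each group (5 vehicle libraries, 7 libraries each with AAV-GFP and AAV-miR-34b/c). Black squares are AAV-miR-34b/c libraries 1 and 2. *Gpnmb* lay between 12.3 and 39.0 CPM with AAV-GFP and at most at 0.691 CPM in vehicle, and *Cd63* and *Cd9* were highest in the black squares.

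*Gpnmb* (ENSMUSG00000029816, chromosome 6, 49036546 to 49070929 in GRCm38) was nearly absent in vehicle livers. Its counts in vehicle libraries 1 to 5 were 2, 0, 0, 1 and 0. In AAV-GFP livers it ranged from 12.3 to 39.0 CPM with a median of 23.3 CPM (39 to 135 counts). In AAV-miR-34b/c livers it ranged from 3.38 to 13.6 CPM with a median of 10.7 CPM (12 to 67 counts). Every library of both injected groups lay above every vehicle library, and 6 of 7 AAV-miR-34b/c libraries lay below all AAV-GFP libraries.

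With 3 counts in all 5 vehicle libraries, the ratio of summed *Gpnmb* counts per library size was 112 for AAV-GFP over vehicle, with a counting interval of 38.2 to 546 (exact, 95%) that reflects the 3 counts and is no test of the groups. The same ratio was 45.1 (15.2 to 220) for AAV-miR-34b/c over vehicle. Vehicle libraries 1 and 4 held all 3 counts. Without vehicle library 1 the ratios were 271 (48.4 to 10713) and 109 (19.3 to 4317), from 1 vehicle count. Without both libraries no vehicle count was left, and with 3 counts over the group as the floor the level was at least 58.9-fold higher with AAV-GFP and at least 23.7-fold higher with AAV-miR-34b/c. *Gpnmb* passed the filter on low counts against vehicle only through the injected groups, so that no p is given there. Between the 2 vectors, *Gpnmb* was lower with AAV-miR-34b/c by edgeR's quasi-likelihood test, with a mean of 8.91 ± 3.65 CPM (SD, n = 7) against 23.1 ± 9.21 CPM (SD, n = 7), a log2 fold change of -1.37 (SE 0.30) and an adjusted p of 0.0143. The two-sided exact permutation test of mean log2 CPM gave p = 0.00175. Here and below, that test takes each library as a separate sample, those of close pairs included. The comparison between the vectors shares the AAV-GFP libraries, and that of AAV-miR-34b/c livers the vehicle libraries, with the contrast that put *Gpnmb* and *Cd63* forward, so that no test here is independent of that choice. Its adjusted p was 0.0615 without AAV-GFP libraries 1 and 2, 0.0817 without AAV-miR-34b/c libraries 3 and 4 and 0.115 when the libraries of each close pair were summed, with log2 fold changes of -1.37, -1.18 and -1.31.

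*Cd63* (ENSMUSG00000025351, chromosome 10, 128900989 to 128912822) was higher in all AAV-GFP livers than in any vehicle liver. The vehicle libraries held 53.5, 26.7, 25.7, 46.5 and 28.3 CPM, and the AAV-GFP libraries 115 to 210 CPM with a median of 147 CPM. The AAV-miR-34b/c libraries held 278, 360, 97.9, 109, 48.9, 39.3 and 47.8 CPM in the order of their numbers. Thus all 7 AAV-GFP libraries lay above all vehicle libraries, while the AAV-miR-34b/c group was split, with libraries 1 and 2 above every AAV-GFP library and the other 5 below every one.

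The fitted log2 fold change of *Cd63* between AAV-GFP and vehicle was 2.12 (SE 0.22). Between the vectors it was -0.18 (SE 0.41, adjusted p = 0.899), an error wide enough to hold changes in either direction. Without AAV-miR-34b/c libraries 1 and 2 it was -1.22 (SE 0.24, adjusted p = 0.00707). The close pairs with the highest neutrophil markers were also those with the higher *Cd63* within this group. Against vehicle, *Cd63* was higher with AAV-miR-34b/c (log2 fold change 1.95, SE 0.52, adjusted p = 0.0145), and 4 of 7 libraries lay above all vehicle libraries. That value was 0.90 (adjusted p = 0.0175) without AAV-miR-34b/c libraries 1 and 2, and the call was lost without vehicle libraries 1 and 4 (adjusted p = 0.0521), without vehicle libraries 3 and 5 (0.0920) and with close pairs summed (0.102).

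Promoter sequence is shown for *Gpnmb* and *Cd63*, which the AAV-GFP livers held at higher levels, and for *Anxa2*, which has an AP-1 match. These are the 250 bases before the start of the gene in RefSeq (GRCm38.p6), 5′ to 3′ on the strand of the gene, and for *Cd63* and *Anxa2* that start lies inside the annotated gene. Capitals mark motif matches, of which the *Gpnmb* stretch has none. RefSeq windows of 250 bases before to 50 bases after the start were found for 9 of the 10 genes, all but *Fabp5*.
Gpnmb, chr6:49036268-49036517, plus strand: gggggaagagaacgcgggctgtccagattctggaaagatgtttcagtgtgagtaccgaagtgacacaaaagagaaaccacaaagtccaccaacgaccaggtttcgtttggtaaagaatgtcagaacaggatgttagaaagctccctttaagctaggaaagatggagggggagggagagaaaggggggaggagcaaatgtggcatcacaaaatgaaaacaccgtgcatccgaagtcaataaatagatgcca
Cd63, chr10:128909095-128909344, plus strand: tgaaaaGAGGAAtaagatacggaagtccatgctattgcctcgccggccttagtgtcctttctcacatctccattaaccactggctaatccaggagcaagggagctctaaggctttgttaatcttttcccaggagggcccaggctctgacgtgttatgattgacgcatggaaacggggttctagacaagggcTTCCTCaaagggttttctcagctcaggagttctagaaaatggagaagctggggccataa
Anxa2, chr9:69453433-69453682, plus strand: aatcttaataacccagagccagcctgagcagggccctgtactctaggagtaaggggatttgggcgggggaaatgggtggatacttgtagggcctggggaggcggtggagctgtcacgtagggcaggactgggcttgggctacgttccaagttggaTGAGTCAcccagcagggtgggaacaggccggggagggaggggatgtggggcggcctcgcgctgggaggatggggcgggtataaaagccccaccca

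Matches to 3 motifs were sought on either strand of the whole windows. CACGTG, the E-box that MITF and TFE factors bind, was in none of the 9 genes' windows and in 7.15% of all 32851 windows. TGAGTCA, the AP-1 site, was in windows of *Gpnmb*, *Anxa2* and *Mmp12* and in 5.2% of all windows. The match of *Gpnmb* starts 8 bases after the first transcribed base and is not in the stretch shown, and that of *Anxa2* starts 95 bases before it. GAGGAA, a core of PU.1-type sites, was in windows of *Cd63*, *Trem2* and *Mmp12* and in 28.3% of all windows. The capitals in *Cd63* are 1 match on each strand. No motif contains another, and a match describes the sequence only.

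*Cd9* (ENSMUSG00000030342, chromosome 6, 125460266 to 125494791) encodes the tetraspanin that defines scar-associated macrophages together with TREM2, and is also made by other cell types. The vehicle libraries held 26.2, 11.2, 9.31, 22.3 and 14.5 CPM, the AAV-GFP libraries 8.25 to 31.5 CPM (median 14.4 CPM) and the AAV-miR-34b/c libraries 4.66 to 48.1 CPM (median 11.2 CPM). All 3 ranges overlapped. AAV-miR-34b/c libraries 1 and 2, with 48.1 and 38.6 CPM, were the highest of all 19, and the remaining 5 held at most 13.8 CPM. The log2 fold change was -0.00 (SE 0.31) between AAV-GFP and vehicle, 0.19 (SE 0.43, adjusted p = 0.894) between the vectors and 0.20 (SE 0.48, adjusted p = 0.799) with AAV-miR-34b/c against vehicle. Without AAV-miR-34b/c libraries 1 and 2, both of these differences turned negative, to -0.79 (adjusted p = 0.137) and -0.79 (adjusted p = 0.0504).

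*Trem2* (ENSMUSG00000023992, chromosome 17, 48346401 to 48354147) was counted at 0 to 17 per library and did not pass the filter on low counts, so edgeR did not test it. Its counts in vehicle libraries 1 to 5 were 4, 1, 2, 6 and 0. The AAV-GFP libraries held 1.53 to 5.06 CPM (median 2.27 CPM), all above the vehicle maximum of 1.45 CPM. The AAV-miR-34b/c libraries held 0 to 5.93 CPM (median 1.71 CPM) and overlapped both other groups. Summed over libraries, the level with AAV-GFP was 3.13 times that of vehicle, or 7.13 times without vehicle libraries 1 and 4, which held 10 of the 13 vehicle counts (counting interval 2.33 to 35.5 from the 3 counts left, no test of the groups). The difference between the vectors was not detectable at this depth, with a difference of mean log2 CPM of -0.58 (two-sided exact permutation p = 0.243). Against vehicle, the AAV-miR-34b/c group differed by 0.74 (p = 0.235, same exact test). These differences depend on the prior count of 2, and with 0.5 they were -0.91 (exact p = 0.219) and 1.01 (exact p = 0.306).

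*Mmp12* (ENSMUSG00000049723, chromosome 9, 7344381 to 7369499), the macrophage metalloelastase, was the other gene below the filter. Vehicle libraries 1 to 5 had 3, 0, 0, 3 and 0 counts, the AAV-GFP libraries 0 to 19 and the AAV-miR-34b/c libraries 1 to 5. In AAV-GFP livers 6 of 7 libraries lay above all vehicle libraries, and library 3 had no count. Summed over libraries, the level with AAV-miR-34b/c was 0.318 times that with AAV-GFP (exact 95% interval 0.188 to 0.517, counting error only). Between libraries, the difference of mean log2 CPM was -0.90 (two-sided exact permutation p = 0.0787), and -1.28 without AAV-GFP library 3 (p = 0.00117, same exact test). With each library left out in turn, it ranged from -1.28 to -0.72 (p of 0.00117 to 0.154, same exact test). Against vehicle the AAV-miR-34b/c group was higher by 0.85 (p = 0.0366, same exact test), and p lay between 0.0606 and 0.0727 when any of 6 single libraries was left out (vehicle 2, 3 or 5 and AAV-miR-34b/c 1, 4 or 5). With a prior count of 0.5 in place of 2, the difference was -0.99 between the vectors (exact p = 0.201) and 1.72 against vehicle (exact p = 0.0290).

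*Fabp5* (ENSMUSG00000027533, chromosome 3, 10012548 to 10016607), a carrier of fatty acids in the cytoplasm, ran the other way. The vehicle libraries held 157, 35.6, 76.2, 162 and 69.9 CPM. The AAV-GFP libraries held 14.3 to 32.6 CPM (median 23.8 CPM), all below every vehicle library. The AAV-miR-34b/c libraries held 50.7 to 133 CPM (median 69.6 CPM), all above every AAV-GFP library and within the range of the vehicle libraries. *Fabp5* was higher with AAV-miR-34b/c than with AAV-GFP, at 76.7 ± 26.6 CPM (SD, n = 7) against 24.5 ± 5.76 CPM (SD, n = 7), with a log2 fold change of 1.63 (SE 0.21, edgeR adjusted p = 0.000193). The exact permutation test gave p = 0.000583, the smallest it can give. The edgeR call held in every alternative fit, close pairs summed included. Against vehicle, the log2 fold change was -2.03 (SE 0.29) for AAV-GFP, or -1.30 without vehicle libraries 1 and 4, and -0.38 (SE 0.31, adjusted p = 0.390) for AAV-miR-34b/c, or 0.35 (adjusted p = 0.494) without those 2 libraries.

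The annexins bind membrane phospholipids in the presence of calcium. *Anxa5* (ENSMUSG00000027712, chromosome 3, 36448923 to 36475894) held 17.3, 17.1, 24.4, 23.7 and 34.3 CPM in vehicle, 53.3 to 83.8 CPM (median 61.9 CPM) with AAV-GFP and 44.1 to 61.2 CPM (median 49.2 CPM) with AAV-miR-34b/c. Every library of both injected groups lay above every vehicle library. Against vehicle, *Anxa5* was higher with AAV-miR-34b/c (log2 fold change 1.17, SE 0.19, edgeR adjusted p = 0.000925), and its log2 fold change with AAV-GFP was 1.46 (SE 0.20). Between the vectors it was -0.30 (SE 0.14, adjusted p = 0.318), and the unadjusted exact permutation p of 0.0355 rose to between 0.0583 and 0.0717 when any of 7 single libraries was left out (AAV-GFP 3, 4 or 7 and AAV-miR-34b/c 1, 2, 5 or 7).

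*Anxa2* (ENSMUSG00000032231, chromosome 9, 69453620 to 69491795), whose protein pairs with S100A10 at the cell surface, held 19, 8.24, 15.5, 19.9 and 13.7 CPM in vehicle, 21.2 to 40.7 CPM (median 31.0 CPM) with AAV-GFP and 14.6 to 27.0 CPM (median 20.8 CPM) with AAV-miR-34b/c. All AAV-GFP libraries lay above all vehicle libraries, and 5 of 7 AAV-miR-34b/c libraries lay below all AAV-GFP libraries. The log2 fold change was 0.99 (SE 0.23) between AAV-GFP and vehicle, -0.56 (SE 0.18, adjusted p = 0.0977) between the vectors and 0.44 (SE 0.23, adjusted p = 0.180) with AAV-miR-34b/c against vehicle. Neither of the last 2 passed the edgeR threshold. The two-sided exact permutation test of mean log2 CPM, not adjusted over genes, gave p = 0.00641 between the vectors, and 0.00291 to 0.0163 when each library was left out in turn. The same exact test gave p = 0.0543 with AAV-miR-34b/c against vehicle. Between the vectors the edgeR value passed without AAV-miR-34b/c libraries 1 and 2 (-0.72, adjusted p = 0.0256). It was -0.42 (adjusted p = 0.310) without AAV-miR-34b/c libraries 5 and 7 and -0.54 (adjusted p = 0.379) with close pairs summed.

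*Lyz2* (ENSMUSG00000069516, chromosome 10, 117277331 to 117282321) encodes lysozyme of macrophages and neutrophils, and *Lgals3* (ENSMUSG00000050335, chromosome 14, 47367751 to 47386160) encodes galectin-3, a secreted lectin that binds β-galactosides. *Lyz2* held 153, 59.3, 159, 147 and 152 CPM in vehicle, 60.3 to 169 CPM (median 99.9 CPM) with AAV-GFP and 68.1 to 175 CPM (median 79.8 CPM) with AAV-miR-34b/c. AAV-miR-34b/c libraries 1 and 2 held 175 and 156 CPM, and the other 5 at most 80.7 CPM. *Lgals3* held 12.4, 6.92, 9.31, 15.5 and 12.1 CPM in vehicle, 8.53 to 24.6 CPM (median 10.5 CPM) with AAV-GFP and 9.64 to 24.9 CPM (median 14.2 CPM) with AAV-miR-34b/c. The groups overlapped for both genes. Between the vectors the log2 fold change was -0.04 (SE 0.28, adjusted p = 0.972) for *Lyz2* and 0.27 (SE 0.27, adjusted p = 0.712) for *Lgals3*. With AAV-miR-34b/c against vehicle it was -0.40 (SE 0.28, adjusted p = 0.309) and 0.51 (SE 0.27, adjusted p = 0.181), and for *Lyz2* it was -0.84 (adjusted p = 0.00386) without AAV-miR-34b/c libraries 1 and 2. Reads of *Lyz2* could be shared with its near-identical neighbour *Lyz1*, which had at most 4 counts in any library.

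**Figure D2:**
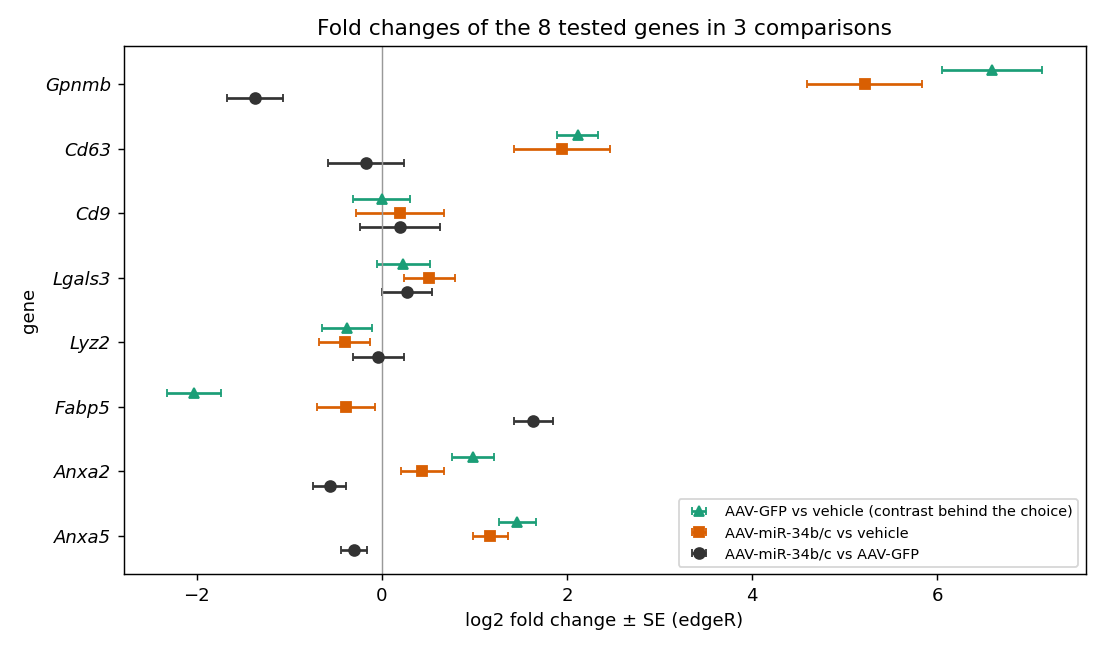
Fitted log2 fold changes (edgeR, bars are SE) of the 8 tested genes in 3 comparisons. *Gpnmb* and *Cd63*, which were put forward by the comparison of AAV-GFP with vehicle, have the highest values against vehicle. There *Gpnmb* rests on 3 vehicle counts and passed the filter only through the injected groups. *Fabp5* is the gene with a value of 1.63 between the vectors and -2.03 between AAV-GFP and vehicle.

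Counted over the 8 genes that passed the filter, 2 were called between the vectors at an adjusted p under 0.05, *Gpnmb* lower and *Fabp5* higher, where 3.36% of the 9252 genes tested were called. *Gpnmb* was put forward by its level in the AAV-GFP libraries, which this comparison shares, so that its call is not independent of the choice. Of the 7 tested genes other than *Gpnmb*, *Fabp5* alone was called. The groups did not overlap for 1 of the 8, *Fabp5*, as for 1.38% of genes tested. With AAV-miR-34b/c against vehicle 2 of the 7 tested genes other than *Gpnmb* were called, *Cd63* and *Anxa5*, both higher, where 21.9% of 9290 genes were called. The groups did not overlap for 1 of these 7, *Anxa5*, as for 7.78% of genes. Between AAV-GFP and vehicle, the contrast behind the choice, 5 of 8 were past the threshold where 12.7% of 9522 genes were, and 5 of 8 did not overlap where 4.79% of genes did not. Nothing is read from these counts. They include *Gpnmb* and *Cd63*, which this contrast put forward, and *Gpnmb* passed the filter there only through the AAV-GFP libraries. The median log2 fold change of the 8 was -0.11 between the vectors, beside -0.01 over all genes tested. Scaling by library size alone moved the median of all genes by -0.19 between the vectors and by -0.14 for AAV-miR-34b/c against vehicle. It gave 119 higher and 505 lower genes between the vectors, against 180 and 131 with TMM, and 730 higher and 1616 lower for AAV-miR-34b/c against vehicle, against 1131 and 906. The 4 calls of these genes, those of *Gpnmb* and *Fabp5* between the vectors and of *Cd63* and *Anxa5* against vehicle, kept their direction under it.

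After the group means were subtracted, Pearson's r of log2 CPM over 19 libraries had a median of 0.29 over the 45 gene pairs, with a range of -0.24 to 0.87, and was above 0 for 37 pairs. *Cd63*, *Cd9* and *Lyz2*, picked out after their values were seen, had r of 0.87 (*Cd63* and *Cd9*), 0.76 (*Cd9* and *Lyz2*) and 0.64 (*Cd63* and *Lyz2*). *Lgals3* and *Anxa2* had an r of 0.80. *Gpnmb* and *Cd63*, put forward together, had an r of -0.20 within groups. These values are a description, since libraries share depth, scaling and close pairs.

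**Figure D3:**
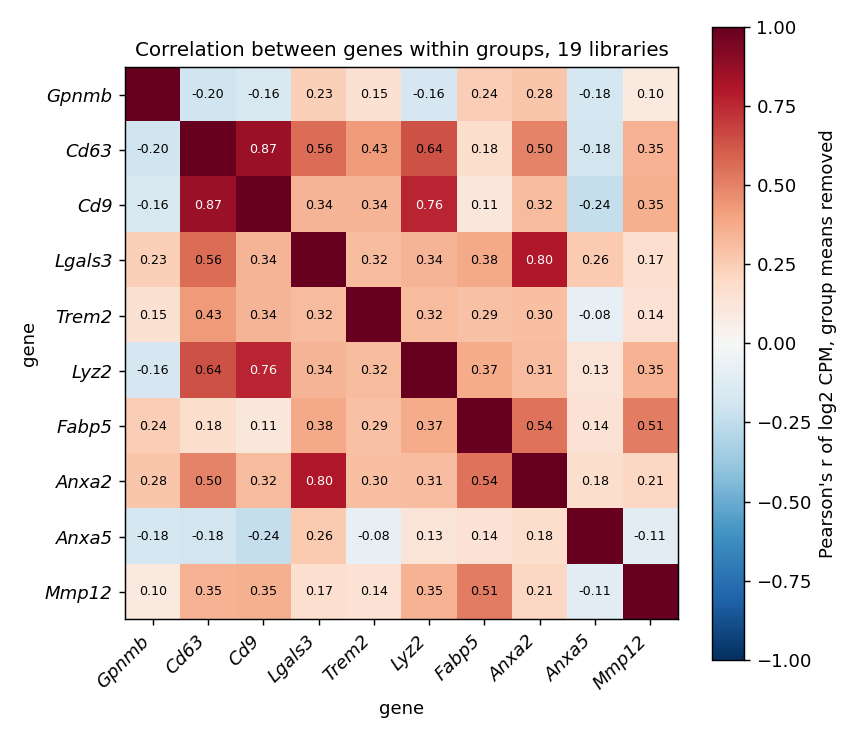
Pearson's r of log2 CPM between each pair of the 10 genes over 19 libraries after subtraction of the group means. The highest value is 0.87 for *Cd63* and *Cd9*, and *Gpnmb* lies between -0.20 and 0.28 with all others.

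**Figure D4:**
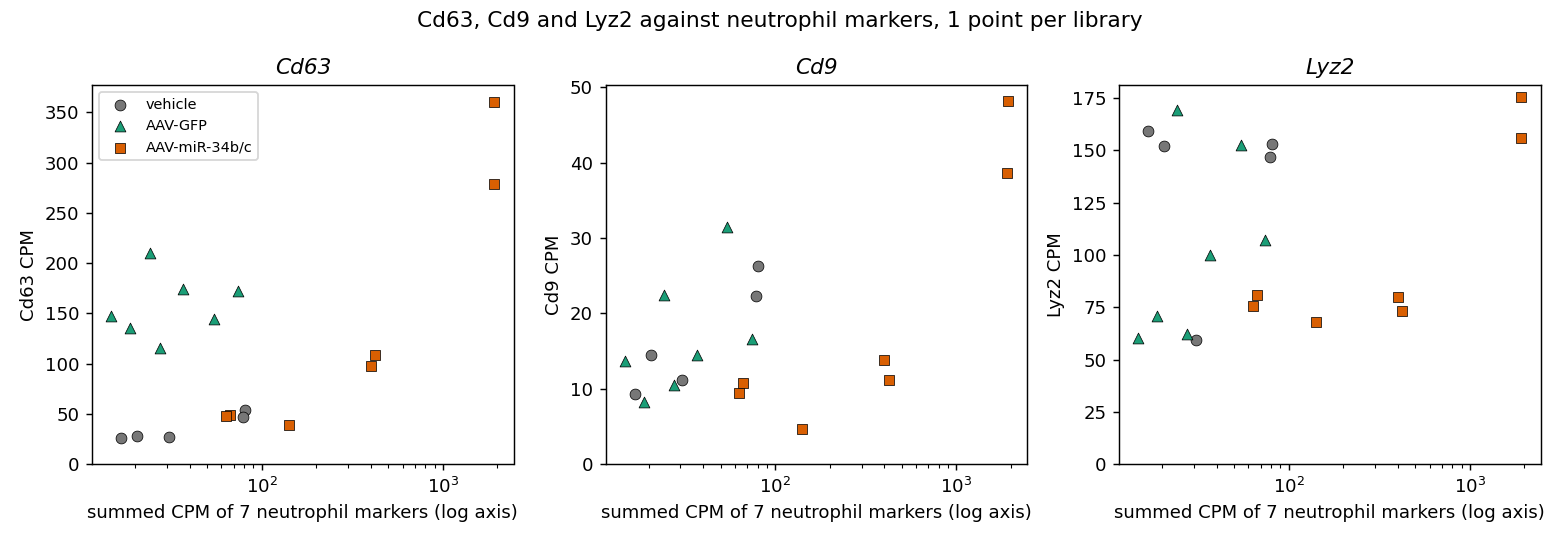
CPM of *Cd63*, *Cd9* and *Lyz2* (vertical axes, linear) against the summed CPM of 7 neutrophil markers (horizontal axes, log scale), 1 point per library. AAV-miR-34b/c libraries 1 and 2 lie at the right, at 1923 and 1909 CPM of neutrophil markers, and are the highest of all 19 libraries for each of the 3 genes except *Lyz2* in library 2.

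The genes most like *Gpnmb* over the 19 libraries by Pearson's r of log2 CPM were *Sparcl1* (0.89), *Btg1* (0.89), *Desi2* (0.88), *Rhou* (0.87) and *Bicc1* (0.86). Of these, *Bicc1*, an RNA-binding protein gene, held 1.93 ± 1.20 CPM in vehicle (SD, n = 5), 15.7 ± 6.69 CPM with AAV-GFP and 6.56 ± 1.49 CPM with AAV-miR-34b/c (SD, n = 7 each). Most like *Cd63* were *Ly6d* (0.93), *Cd36* (0.89), *Rnf181* (0.89), *Adh4* (0.87) and *Aqp8* (0.85). *Ly6d* held 3.70 ± 2.32 CPM in vehicle (SD, n = 5), 40.1 ± 17.0 CPM with AAV-GFP and 56.5 ± 54.1 CPM with AAV-miR-34b/c (SD, n = 7 each). None of these genes is in the macrophage lists followed here, and each r includes the differences between group means.

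Other genes of scar- or lipid-associated macrophages were followed in a list of 25, of which 24 were in the table and 18 or 19 passed the filter. Values in parentheses from here on are edgeR log2 fold changes and adjusted p-values. No p is given where a called list gene had no library of its lower group above the CPM asked for by the filter on low counts, so that it passed only through the group where it was higher, and such genes are left out of the counts that follow. This was so for *Cx3cr1* against vehicle in both injected groups, for *Pdgfrb* with AAV-GFP and for *Retnlg* with AAV-miR-34b/c. Of the other called list genes picked by the naming rule, 6 of 12 between the vectors (*Col1a1*, *Col3a1*, *Lyve1*, *Retnlg*, *S100a8* and *S100a9*) were also called in every fit with close pairs summed or a close pair left out. The same held for 6 of 22 for AAV-GFP against vehicle (*Cd163*, *Col1a1*, *Lgals1*, *Lpl*, *Timd4* and *Tspan4*) and for 6 of 24 with AAV-miR-34b/c (*Clu*, *Hnf4a*, *Lyve1*, *Mmp14*, *Tspan9* and *Tspan12*), and each remaining gene was not called, or failed the filter, in at least 1 such fit. Between AAV-GFP and vehicle 5 of 19 were higher and 0 lower (median log2 fold change 0.09, beside -0.01 over all genes). The 4 with the smallest adjusted p were *Lgals1* (1.30, adjusted p = 0.000712), *Lpl*, lipoprotein lipase (1.43, 0.00420), *Spp1*, osteopontin (1.31, 0.00795), and *Lipa*, lysosomal acid lipase (0.67, 0.0167). Between the vectors 1 of 18 was higher, *Ctsz*, a lysosomal protease (0.48, adjusted p = 0.0184), and 1 lower, *Lpl* (-0.97, adjusted p = 0.0301). With AAV-miR-34b/c against vehicle 2 of 18 were higher, *Ctsz* (0.53, adjusted p = 0.0128) and *Lgals1* (0.83, adjusted p = 0.0192). Of all genes tested, 21.9% were called in this comparison, 12.7% between AAV-GFP and vehicle and 3.36% between the vectors. The same shares apply to the counts of all lists below. *Spp1* held 11.5 ± 6.45 CPM in vehicle (SD, n = 5), 29.1 ± 6.90 CPM with AAV-GFP and 18.4 ± 8.32 CPM with AAV-miR-34b/c (SD, n = 7 each), and was not called between the vectors (-0.67, adjusted p = 0.180). *Cd68*, a lysosomal glycoprotein of all macrophages, held 9.64 ± 1.30, 10.5 ± 2.26 and 12.3 ± 2.93 CPM in the same order and passed in no comparison (adjusted p of 0.256 to 0.754).

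Of 11 genes of TREM2 signalling and its ligands, 5 passed the filter and 1 was called, *Clu*, clusterin, higher with AAV-miR-34b/c than in vehicle (0.94, adjusted p = 0.00104). *Tyrobp*, the TREM2 adaptor, held 25.2 ± 7.62 CPM in vehicle (SD, n = 5), 20.5 ± 6.41 CPM with AAV-GFP and 24.2 ± 6.87 CPM with AAV-miR-34b/c (SD, n = 7 each), with adjusted p of 0.438 to 0.879. *Apoe*, a lipoprotein ligand of TREM2 made mostly by hepatocytes in liver, was not called either (adjusted p of 0.162 to 0.940). *Mitf*, a transcription factor that acts on *Gpnmb* in melanocytes, held 7.48 ± 2.60, 5.83 ± 2.04 and 5.60 ± 2.98 CPM in the same order, with no call in any comparison for the 3 of 4 such genes that were tested. *Pmel*, the nearest relative of *Gpnmb*, had at most 3 counts in any library.

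Among 19 other tetraspanins, *Tspan4* was lower with AAV-GFP than in vehicle (-1.14, adjusted p = 0.000636) and higher with AAV-miR-34b/c than with AAV-GFP (0.88, adjusted p = 0.0106), comparisons that share the AAV-GFP libraries. *Tspan14* was higher against vehicle in both injected groups (0.995, adjusted p = 0.0219, and 0.925, adjusted p = 0.0130) and *Tspan12* lower in both (-0.78, adjusted p = 0.0112, and -1.21, adjusted p = 0.00153). In all, 1 of 11 was called between the vectors, where 3.36% of all genes tested were. Between AAV-GFP and vehicle 3 of 13 were called (12.7% of all genes), and with AAV-miR-34b/c against vehicle 3 of 11 (21.9%). In the last comparison *Tspan9* was the third (1.10, adjusted p = 0.00514). *Cd81*, a partner of CD9, held 216 ± 19.2 CPM in vehicle (SD, n = 5), 223 ± 26.5 CPM with AAV-GFP and 198 ± 17.9 CPM with AAV-miR-34b/c (SD, n = 7 each), and was not called.

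None of the 6 other annexins and S100 partners tested was called between the vectors, and *S100a10*, the partner of ANXA2, was called in no comparison (adjusted p of 0.189 to 0.691). *Anxa7* was lower than in vehicle with AAV-GFP (-0.57, adjusted p = 0.0384) and with AAV-miR-34b/c (-0.78, adjusted p = 0.0120), and *S100a11* was higher with AAV-GFP (0.79, adjusted p = 0.0211). Of the other galectins, *Lgals1* alone was called, with the values above, among 5 tested against vehicle with AAV-GFP and 4 in the other comparisons. Of the other fatty acid binding proteins, 3 were tested. *Fabp2* was lower with AAV-miR-34b/c than with AAV-GFP (-1.34, adjusted p = 0.0165) and than in vehicle (-0.91, adjusted p = 0.0261), and *Fabp1*, the liver form, lower than in vehicle (-0.83, adjusted p = 0.00778). Neither was called between AAV-GFP and vehicle, where *Fabp5* had its lowest level. Of the metalloproteinases and inhibitors tested, *Mmp15*, *Mmp14* and *Timp2* were higher with AAV-GFP than in vehicle (1.64, 1.20 and 1.02, with adjusted p of 0.00246, 0.0162 and 0.0224), *Mmp14* and *Mmp15* also with AAV-miR-34b/c (1.63, adjusted p = 0.000349, and 1.57, adjusted p = 0.00626), and none of 6 was called between the vectors.

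Marker lists of cell types were followed beside these genes. The 12 macrophage and monocyte markers summed to 258 to 492 CPM in vehicle, 323 to 391 CPM with AAV-GFP and 276 to 391 CPM with AAV-miR-34b/c, ranges that overlapped. Against vehicle, *Adgre1*, which encodes F4/80, was lower in both injected groups (-0.99, adjusted p = 0.0181, and -1.22, adjusted p = 0.00390). *Cx3cr1*, a receptor of recruited monocytes, held 1.83 ± 1.17 CPM in vehicle (SD, n = 5), 9.84 ± 3.07 CPM with AAV-GFP and 7.06 ± 3.09 CPM with AAV-miR-34b/c (SD, n = 7 each). *Itgam* was higher with AAV-miR-34b/c (1.53, adjusted p = 0.0278). For *Itgam*, 1 of 5 vehicle and 5 of 7 AAV-miR-34b/c libraries lay above the CPM asked for by the filter, so that it passed mostly through the group where it was higher. That call was lost without vehicle libraries 3 and 5 (adjusted p = 0.142) and with close pairs summed (adjusted p = 0.109).

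Of 11 Kupffer cell markers tested, 5 were lower and 0 higher with AAV-GFP than in vehicle, among them *Cd163* (-1.59, adjusted p = 0.000555), *Timd4* (-2.13, adjusted p = 0.000569), *Vsig4* (-0.79, adjusted p = 0.0106) and *Clec4f* (-0.93, adjusted p = 0.0133). Between the vectors 2 of 10 were higher with AAV-miR-34b/c, *Cd5l* (0.86, adjusted p = 0.00553) and *C1qb* (0.94, adjusted p = 0.00858). Of all genes tested, 12.7% were called between AAV-GFP and vehicle and 3.36% between the vectors. Against vehicle, *Slc40a1*, *Timd4* and *Folr2* were lower with AAV-miR-34b/c (-0.76, -1.69 and -0.72, with adjusted p of 0.00971, 0.0196 and 0.0246). *Timd4* lay above the CPM asked for by the filter in 5 of 5 vehicle, 1 of 7 AAV-GFP and 2 of 7 AAV-miR-34b/c libraries. It thus passed mostly through the vehicle group, where it was higher. The list summed to 511 to 857 CPM in vehicle, 384 to 610 CPM with AAV-GFP and 571 to 755 CPM with AAV-miR-34b/c.

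*Col1a1*, type I collagen of activated hepatic stellate cells (HSC), followed the order of *Gpnmb* in the injected groups. It held 4.86 ± 1.21 CPM in vehicle (SD, n = 5), 26.5 ± 15 CPM with AAV-GFP and 6.99 ± 1.10 CPM with AAV-miR-34b/c (SD, n = 7 each), and was higher with AAV-GFP than in vehicle (2.42, adjusted p = 0.000298) and lower with AAV-miR-34b/c than with AAV-GFP (-1.92, adjusted p = 0.000898). *Col1a1* was not called with AAV-miR-34b/c against vehicle (0.51, adjusted p = 0.167). Of the activated HSC markers, 2 of the 6 tested other than *Pdgfrb* were higher with AAV-GFP than in vehicle (*Col1a1* and *Col1a2*) and 2 of 5 were lower with AAV-miR-34b/c than with AAV-GFP (*Col1a1* and *Col3a1*). The shares called over all genes tested were 12.7% and 3.36% in these comparisons. All 3 neutrophil markers tested were higher with AAV-miR-34b/c than with AAV-GFP, led by *S100a8* (4.36, adjusted p = 0.00243, or 2.69, adjusted p = 0.00319, without AAV-miR-34b/c libraries 1 and 2). *S100a8* and *S100a9* were also higher than in vehicle (4.06, adjusted p = 0.00637, and 3.87, adjusted p = 0.00697), calls that were lost without vehicle libraries 3 and 5 (adjusted p of 0.0523 and 0.0555) and with close pairs summed (adjusted p of 0.0618 and 0.0665). *Retnlg* held 0 to 2.42 CPM in vehicle and 1.79 to 58.4 CPM with AAV-miR-34b/c. Of the 8 hepatocyte markers tested, *Hnf4a* alone was called with AAV-GFP against vehicle, and was higher (0.86, adjusted p = 0.00538), where 12.7% of all genes were called. With AAV-miR-34b/c against vehicle, *Hnf4a* (1.21, adjusted p = 9.996e-05) and *Serpina1a* (0.55, adjusted p = 0.0217) were higher and *Cyp2e1* lower (-0.63, adjusted p = 0.00612), where 21.9% of all genes were called. Of the 7 endothelial markers tested, *Lyve1* was higher with AAV-miR-34b/c than with AAV-GFP (1.06, adjusted p = 0.00130) and than in vehicle (1.46, adjusted p = 9.34e-05). *Cdh5* was lower with AAV-miR-34b/c than in vehicle (-1.25, adjusted p = 0.00383), and the others were called in no comparison. Against vehicle, *Ighm*, the 1 lymphocyte marker tested, was lower with AAV-GFP (-1.19, adjusted p = 0.0361). *Sox9*, 1 of 2 cholangiocyte markers tested, was higher than in vehicle with AAV-miR-34b/c (1.40, adjusted p = 0.00223). The 1 dendritic marker tested was called in no comparison. Cholangiocyte, endothelial, dendritic and lymphocyte markers summed to at most 93.7, 408, 13 and 20.4 CPM in any library. The part of any of these cell types in the levels of the 10 genes was not tested.

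**Figure D5:**
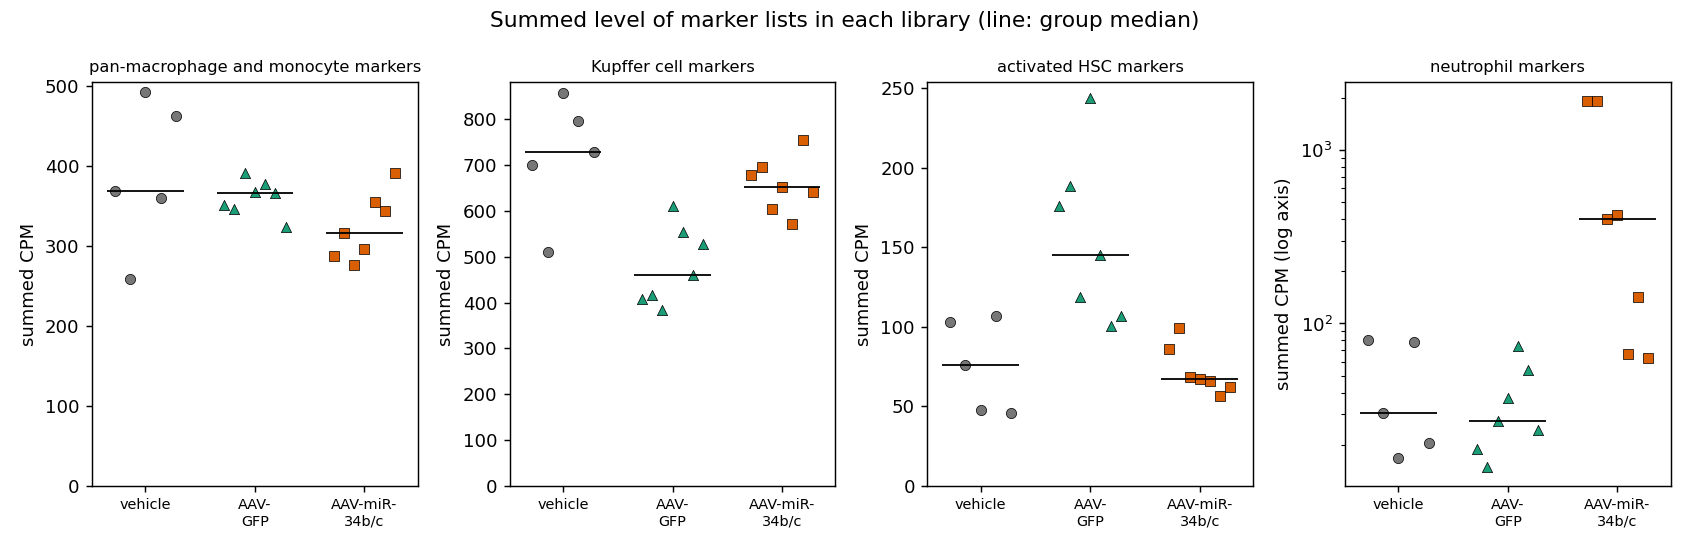
Summed CPM of 4 marker lists in each library (5 vehicle libraries, 7 libraries each with AAV-GFP and AAV-miR-34b/c), with lines at the group medians. Macrophage and monocyte markers overlap in all groups, Kupffer cell markers are lowest with AAV-GFP (median 460.5 CPM against 728 and 653 CPM), activated HSC markers highest with AAV-GFP (median 145 CPM), and neutrophil markers, on a log axis, highest with AAV-miR-34b/c.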

How the data were processed

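Liver RNA of 19 mouse libraries was sequenced from the 3′ end of transcripts with the QuantSeq kit, single-end. The authors deposited raw counts per gene in a single table, made by the sequencing provider's pipeline of quality filtering, trimming, alignment and counting. The submitters' processing notes name STAR and mm10. Their versions, the annotation, the strandedness of counting and any molecular identifiers are not given in the sources used here, so counts can include PCR duplicates. Symbols and positions came from GENCODE annotation of GRCm38, the assembly that mm10 names, and 30934 of 31053 genes had a symbol. The table held no column of another sample.

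Fits used edgeR 4.0.16 in R 4.3.3 on all genes (TMM, filterByExpr at count 10 and total 15, quasi-likelihood test), the compared groups only, with Benjamini-Hochberg adjustment over all genes tested and a threshold of 0.05. SE is the absolute log2 fold change divided by the square root of F. The fits were tested on simulated data with libraries drawn independently, so that the effect of close pairs on errors was not tested. Permutation tests enumerated all assignments of libraries to groups for log2 CPM (prior count 2), in 20 tests without adjustment over the genes. Promoters came from RefSeq. Alternatives were no filter, at least 10 counts in every library, DESeq2 size factors, library size only, DESeq2 1.42.0, limma-voom 3.58.1 with quality weights, one fit of all 3 groups, a block for the replicate number, close pairs summed (coefficient of variation under 0.2), a prior count of 0.5 and each library left out. Leaving out both libraries of a close pair, refitting the named list genes for close pairs, and taking count ratios without vehicle libraries, were added after the data were seen.

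The members and lists were chosen with earlier results of these data known. Genes named are the 10 members, 12 genes named irrespective of their result, up to 4 called genes with the smallest adjusted p per list and comparison, and the 5 genes most like *Gpnmb* and *Cd63*. One gene that this rule names is not reported here.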

Additional observations from a re-analysis of the deposited data

Results flagged for a closer look

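In each group of 5 or 7 libraries, the highest and the lowest log2 CPM of each of the 10 genes was compared with its nearest neighbour by Dixon's ratio, in 30 groups, where chance alone would give about 1.5 flags. There were 2. *Lyz2* in vehicle library 2 was 5.91 on the log2 CPM scale (59.3 CPM), below the next lowest vehicle library at 7.21 (147 CPM). *Mmp12* in AAV-GFP library 3 was -0.67 on the log2 CPM scale, at 0 counts, below the next lowest AAV-GFP library at 1.37 (1.95 CPM).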

How the results depend on the processing

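Of the calls of the 10 genes, *Fabp5* between the vectors and *Anxa5* with AAV-miR-34b/c against vehicle held in every alternative, while *Gpnmb* between the vectors and *Cd63* against vehicle did not. *Gpnmb* gave no value against vehicle without AAV-miR-34b/c libraries 1 and 2 or 5 and 7, or with at least 10 counts required in every library, because it failed the filter, and no edgeR call is read for it there. Between the vectors 311 genes were called in all. This became 624 with library size only, 535 with DESeq2, 813 with limma-voom, 87 with close pairs summed, 137 without AAV-GFP libraries 1 and 2, and 720 and 129 without AAV-miR-34b/c libraries 1 and 2 or 3 and 4. Of the 10 genes, 2 were called there, against 1 with close pairs summed, without AAV-GFP 1 and 2 or without AAV-miR-34b/c 3 and 4, and 4 without AAV-miR-34b/c 1 and 2. For AAV-GFP against vehicle 1212 genes became 2687 with limma-voom, 227 with close pairs summed, 271 without vehicle libraries 1 and 4 and 509 without AAV-GFP 1 and 2. With AAV-miR-34b/c livers set against vehicle livers 2037 became 3839 with limma-voom, 331 with close pairs summed, 557 without vehicle 1 and 4, and 3878, 802 and 1352 without AAV-miR-34b/c 1 and 2, 3 and 4, or 5 and 7. The cause of these changes was not tested.

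Between the vectors, the log2 fold change of *Gpnmb* missed the threshold with close pairs summed (-1.31), without AAV-GFP 1 and 2 (-1.37) and without AAV-miR-34b/c 3 and 4 (-1.18). *Anxa2* passed it with library size only (-0.78), DESeq2 (-0.56), limma-voom (-0.71) and without AAV-miR-34b/c 1 and 2 (-0.72). *Cd63* was -1.22 without AAV-miR-34b/c 1 and 2, past the threshold, and 0.16 without 5 and 7. *Cd9* turned to -0.050 with library size only, -0.27 with limma-voom and -0.79 without AAV-miR-34b/c 1 and 2, *Lgals3* to -0.013 without the same libraries, and *Lyz2* to 0.10 and 0.087 without 3 and 4 or 5 and 7. Against vehicle, *Cd63* with AAV-miR-34b/c missed the threshold with close pairs summed (1.88) and without vehicle 1 and 4 (2.39) or 3 and 5 (1.73), and *Lyz2* passed it with limma-voom (-0.74) and without AAV-miR-34b/c 1 and 2 (-0.84). *Cd9* turned to -0.0014 with library size only, -0.54 with limma-voom, -0.044 without vehicle 3 and 5 and -0.79 without AAV-miR-34b/c 1 and 2, and *Fabp5* to 0.35 without vehicle 1 and 4.

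With a single library left out, called genes ranged from 209 to 344 between the vectors, 689 to 1859 for AAV-GFP against vehicle (689 without vehicle 4, 728 without vehicle 1, 806 without AAV-GFP 3, 1859 without AAV-GFP 6) and 1267 to 2695 when AAV-miR-34b/c livers were set against vehicle livers (1267 without vehicle 4, 1328 without vehicle 1). *Cd9* ranged from -0.23 to 0.41 in both comparisons of AAV-miR-34b/c, and *Lyz2* from -0.23 to 0.13 between the vectors. Differences of mean log2 CPM ranged from -0.35 to 0.19 (*Cd9*) and -0.17 to 0.12 (*Lyz2*) between the vectors and from -0.36 to 0.18 (*Cd9*) against vehicle. No called direction of the 10 genes turned.

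Whether the replicate numbers pair the samples was not settled. Deviations of same-numbered libraries correlated at -0.28 to 0.21 between the vectors, at -0.087 to 0.22 for AAV-GFP and vehicle and at -0.23 to 0.28 for AAV-miR-34b/c with vehicle. Libraries of different numbers were not set beside them. With the number as a block, 142, 3136 and 945 genes were called in these comparisons, against 311, 1212 and 2037 without it. In the block fit between the vectors, *Gpnmb* was -1.38 (edgeR adjusted p = 0.0653), *Cd9* was -0.079 and 1 of the 10 genes was called. Depth limits *Trem2* and *Mmp12*, at most 17 and 19 counts per library.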
